A study of Mus musculus with 12 samples.

Results

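The Cyp2c genes encode a subfamily of microsomal cytochrome P450 enzymes, and 10 of them were described here by name: Cyp2c29, Cyp2c37, Cyp2c38, Cyp2c39, Cyp2c40, Cyp2c44, Cyp2c50, Cyp2c54, Cyp2c55 and Cyp2c70. All 10 were among the 23284 genes of the expression table, and all 10 passed the filter on low values that left 11547 genes to test. Their RNA was measured in liver from mice lacking both apolipoprotein A-I and apolipoprotein E (Apoa1-/- Apoe-/-, DKO) and from mice of that double knockout genotype that also carried the human APOA1 gene (DKO/hA1). Feeding on chow or on high-fat Western diet lasted 22 weeks. There were 4 libraries of DKO mice on chow and 3 on Western diet, and 2 libraries of DKO/hA1 mice on chow and 3 on Western diet. Every group therefore carried both deletions, and no group had intact apolipoprotein genes. The labels gave no age, no sex and no promoter for the transgene. Levels are in FPKM, fragments scaled to transcript length and to the mapped fragments of the library, so that levels of different genes are compared per length.

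Cyp2c enzymes sit in the endoplasmic reticulum of hepatocytes, receive electrons from the reductase Por, and oxidise drugs and fatty acids. Many turn arachidonic acid into epoxides or hydroxylated acids, and the soluble hydrolase Ephx2 opens those epoxides. In liver, several Cyp2c genes respond to the xenobiotic receptors CAR, encoded by Nr1i3, and PXR, encoded by Nr1i2, and inflammation is known to lower many hepatic P450 transcripts.

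The transgene check came first. The Apoa1 row read 30.4 to 77.4 FPKM without the transgene and 122 to 239.8 FPKM with it, with no overlap. Apoe read 12.9 to 89.8 FPKM, above 0 in all 12 libraries. Hepatocyte markers were high in every library, at a mean log2 level of 9.77 to 10.2 over 11 genes. The Y-linked gene Ddx3y read 10.5 to 16.7 FPKM and Xist at most 0.293 FPKM in all 12. Replicate 2 of DKO on Western diet and replicate 3 of DKO/hA1 on Western diet stood apart, with summed neutrophil markers (8 genes) of 992 and 898 FPKM against 12.2 to 225 FPKM in the other libraries. They were also highest in the mean log2 level of 24 acute-phase genes, at 10.74 and 10.64. In whole liver, fewer cells of a type and less RNA per cell cannot be told apart.

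The 10 genes together made up 0.183% to 0.546% of all FPKM. Their summed level ran from 885 FPKM in DKO/hA1 Western diet replicate 3 to 2292 FPKM in DKO chow replicate 2. By mean level over the 12 libraries, Cyp2c70 (369 FPKM), Cyp2c29 (327 FPKM) and Cyp2c50 (314 FPKM) came first, and their ranges overlapped. Cyp2c37 (156 FPKM), Cyp2c44 (135 FPKM) and Cyp2c54 (101 FPKM) formed a middle tier, also with overlapping ranges. Cyp2c40 followed at 19.99 FPKM. Cyp2c38 (5.30 FPKM), Cyp2c55 (2.03 FPKM) and Cyp2c39 (0.838 FPKM) were the lowest. The makeup of the sum changed more than the sum itself: Cyp2c29 supplied 6.76% to 34.8% of it and Cyp2c70 14.5% to 64.9%.

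**Figure D1:**
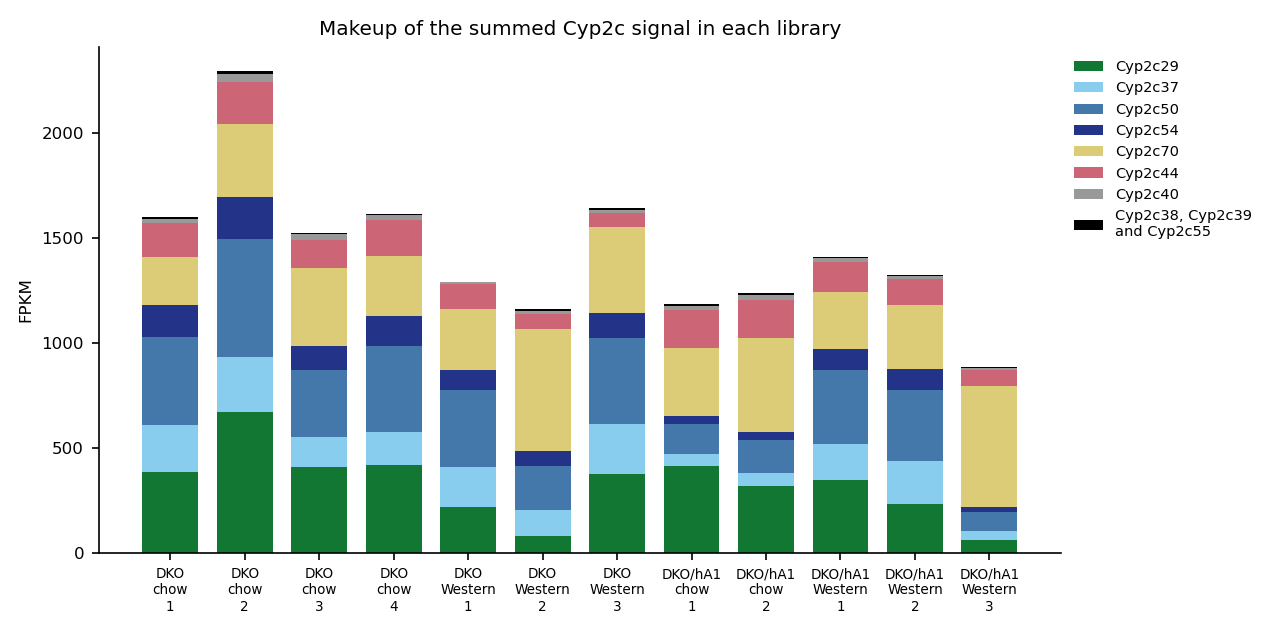
Stacked FPKM of the 10 Cyp2c genes in each of the 12 libraries, with group and replicate number under each bar and the 3 lowest genes summed. Cyp2c70 makes up the largest share in DKO/hA1 Western diet replicate 3, where the whole stack is lowest, and Cyp2c37, Cyp2c50 and Cyp2c54 form thin bands in both DKO/hA1 chow libraries.

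All 10 genes lie on chromosome 19 and have 9 exons each in GENCODE on build GRCm38 (mm10). Those other than Cyp2c44 lie between positions 39007019 and 40187333, a span of 1.18 Mb, and Cyp2c44, listed there as Cyp2c23, lies 3.82 Mb further on. Coding sequences of the members were 60.3% to 96.1% identical, with a median of 74.6% over pairs. Cyp2c37, Cyp2c50 and Cyp2c54 formed one close set, with identities of 96.1% (Cyp2c37 and Cyp2c50), 95.2% (Cyp2c50 and Cyp2c54) and 95.1% (Cyp2c37 and Cyp2c54). Cyp2c38 and Cyp2c39 were 94.2% identical. Cyp2c40 has its nearest copies outside the 10 genes: Cyp2c68 (92.6%), Cyp2c69 (92.4%) and Cyp2c67 (92.2%).

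Near copies can share sequencing reads, and how the authors' tools divided such reads is not given in the sources used here. Of all stretches of 50 bases in the transcript, 72.1% in Cyp2c40 were also present in another Cyp2c transcript. The shares were 30.7% for Cyp2c50, 30.1% for Cyp2c37, 25.7% for Cyp2c54, 11.4% for Cyp2c39, 7.4% for Cyp2c38 and 2.1% for Cyp2c29. Cyp2c55 shared 0.5%, and Cyp2c44 and Cyp2c70 shared 0.0%, so these 3 had little or no exact sequence in common with other Cyp2c transcripts. Genes outside the family were not compared. With stretches of 36 bases the shares were 80.9% for Cyp2c40, 43.1% for Cyp2c50 and 2.0% for Cyp2c55. Values for Cyp2c40, and the split among Cyp2c37, Cyp2c50 and Cyp2c54, are uncertain for this reason.

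Pairs that are at least 90% identical also varied together. Over the 12 libraries with group means removed, Pearson's r of the log2 levels was 0.911 to 0.985 for the 4 such pairs of members. It was -0.687 to 0.919, with a median of 0.351, for the other 41 pairs of members. These correlations describe 12 libraries whose estimated depth differed, and the labels name no batch. Differences in depth or batch, and shared reads, can enter them. Identity was not required for a high value, since Cyp2c29 and Cyp2c50, at 82.7% identity, had an r of 0.919, while Cyp2c29 and Cyp2c39, at 89.5%, had 0.238.

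**Figure D2:**
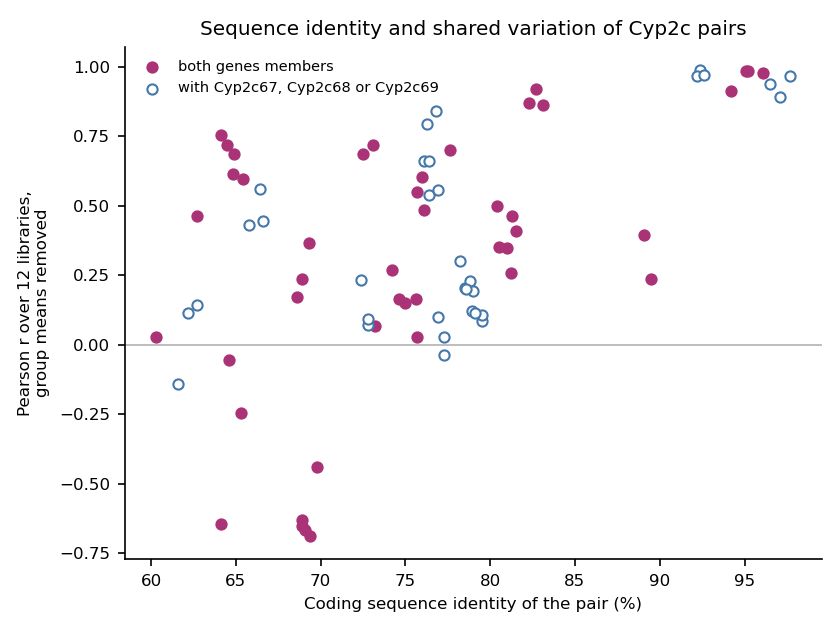
Each point is 1 pair of tested Cyp2c genes, with coding sequence identity in percent on the horizontal axis and Pearson's r over 12 libraries, after group means were removed, on the vertical axis. Filled points are pairs of members and open points involve Cyp2c67, Cyp2c68 or Cyp2c69. The pairs above 90% identity all sit near the top, and pairs below it spread from -0.687 to 0.919.

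The first question was what the Western diet did to these transcripts in each genotype. Cyp2c55 was the member with the clearest difference. It is known as a gut-enriched enzyme that CAR and PXR agonists induce in liver. Its level was 2.23, 3.30, 1.81 and 2.60 FPKM in the DKO chow libraries and 0.619, 0.125 and 0.659 FPKM in the DKO Western diet libraries. In DKO/hA1 mice it was 5.82 and 5.54 FPKM on chow and 1.27, 0.154 and 0.240 FPKM on Western diet. Every Western diet library was below every chow library, and the DKO/hA1 chow pair was the highest of all. Here and for the members below, the share of all genes whose diets did not overlap was not counted. Separation by diet is therefore given as a description only. Group means were 2.48 ± 0.635 (SD, n = 4) and 0.468 ± 0.298 (SD, n = 3) in DKO, and 5.68 ± 0.198 (SD, n = 2) and 0.553 ± 0.618 (SD, n = 3) in DKO/hA1.

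Cyp2c55 fell on Western diet in DKO/hA1, by limma on log2(scaled FPKM + 1), with a log2 fold change of -2.18 ± 0.29 (SE) and an adjusted p of 0.0103. It was the only one of the 10 members to pass there, where 0.312% of all genes passed as lower. In DKO the log2 fold change was -1.29 ± 0.24 and did not pass (adjusted p = 0.101). Averaged over both genotypes, Cyp2c55 also fell, with a log2 fold change of -1.73 ± 0.19 and an adjusted p of 0.00144. Adding 1 FPKM compresses a gene this low: with 0.1 added instead, the log2 fold changes were -2.41 in DKO and -3.56 in DKO/hA1. The test of a difference between these diet effects, the interaction, gave -0.89 ± 0.38 and did not pass (adjusted p = 0.965). The DKO/hA1 result was lost in a fit of only those 2 groups (adjusted p = 0.0698) and without DKO/hA1 chow replicate 2 (adjusted p = 0.125). The DKO result passed without DKO/hA1 Western diet replicate 1 or replicate 3 (adjusted p = 0.0333 and 0.0446). In those fits 17 and 71 of all genes passed, against 13 in the fit over all 12 libraries.

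Because Cyp2c55 is a gut gene elsewhere, intestinal markers were set beside it. Summed over 6 markers they were highest in DKO chow replicate 4, at 202 FPKM against 22.9 to 149 FPKM in the other libraries, and Cdx2 reached 0.806 FPKM there. Cyp2c55 in that library lay within the range of the other DKO chow libraries. In DKO/hA1 chow replicate 2 the marker sum was 38.0 FPKM and Cyp2c55 was at 5.54 FPKM. Cdx2 read 0 FPKM in every Western diet library and 0 to 0.806 FPKM on chow. Cyp2c65 and Cyp2c66, outside the members described, reached 1.42 and 0.614 FPKM on chow and at most 0.0382 FPKM on Western diet. Cdx2, Cyp2c65 and Cyp2c66 all read 0 FPKM in DKO chow replicate 2 and DKO/hA1 chow replicate 2. Cyp2c55 in these libraries read 3.30 and 5.54 FPKM. The 4 intestinal markers that could be tested all had negative log2 diet differences in DKO, with a median of -0.98, and in DKO/hA1 3 of the 4 were positive, with a median of 0.10. By limma 0 of the 4 passed in either genotype, and 0 had an unadjusted p below 0.05. The part of intestinal tissue in the Cyp2c55 values was not tested.

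Cyp2c44, an epoxygenase of arachidonic acid found in liver and kidney, also fell on Western diet when both genotypes were averaged. Its level was 159, 200.3, 134 and 169 FPKM in DKO chow and 119, 70.9 and 67.4 FPKM in DKO Western diet libraries. In DKO/hA1 mice it was 178 and 181 FPKM on chow and 144, 122 and 75.03 FPKM on Western diet. Within each genotype the diets did not overlap, although the highest Western diet library exceeded the lowest chow library of the other genotype. The averaged log2 fold change was -0.87 ± 0.20 (limma adjusted p = 0.0316), and Cyp2c44 and Cyp2c55 were the 2 of 10 members that passed, both lower, where 1.20% of all genes passed as lower. Taken by genotype it did not pass, at -1.04 ± 0.25 in DKO (adjusted p = 0.160) and -0.70 ± 0.30 in DKO/hA1 (adjusted p = 0.333). The averaged result for Cyp2c44 was also lost without both libraries that stood apart, at -0.69 (adjusted p = 0.0864), and without any one of DKO chow replicates 2 and 4, DKO Western diet replicates 2 and 3, DKO/hA1 chow replicates 1 and 2 or DKO/hA1 Western diet replicate 2. With the animals' code number as a random block it was lost too, at -1.02 (adjusted p = 0.0614). Across the alternatives its adjusted p ran from 0.0178 to 0.153.

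Cyp2c40, which in mouse hydroxylates arachidonic acid, had a similar pattern that did not pass. It read 21.3, 40.1, 27.7 and 23.8 FPKM in DKO chow and 7.37, 18.7 and 12.05 FPKM in DKO Western diet libraries. In DKO/hA1 it read 19.7 and 23.8 FPKM on chow and 18.99, 14.2 and 12.3 FPKM on Western diet. All Western diet libraries lay below all chow libraries, by a narrow margin in DKO/hA1. The averaged log2 fold change was -0.85 ± 0.23 (adjusted p = 0.0652), and it passed with equal totals or without DKO Western diet replicate 2 (adjusted p = 0.0231 and 0.0347). Its near copies had values of the same sign: Cyp2c67 passed at -1.05 ± 0.24 (adjusted p = 0.0389), while Cyp2c68 at -0.82 ± 0.21 and Cyp2c69 at -0.74 ± 0.24 did not. Since reads can be shared among these 4 genes, the values do not separate them.

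Cyp2c29, a major epoxygenase of mouse liver, varied most among the abundant members. It read 382, 672, 410.1 and 416 FPKM in DKO chow and 219, 78.4 and 375 FPKM in DKO Western diet libraries. In DKO/hA1 mice it read 413 and 316 FPKM on chow and 346, 234 and 60.2 FPKM on Western diet. The lowest values, 78.4 and 60.2 FPKM, were those of the 2 libraries that stood apart, and the diets overlapped in DKO/hA1 but not in DKO. The averaged log2 fold change was -1.22 ± 0.47, which did not pass (adjusted p = 0.184).

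Cyp2c70, the enzyme that makes the muricholic bile acids of mice, had no diet difference that passed. It read 231, 345, 369.9 and 286 FPKM in DKO chow and 292, 578 and 409 FPKM in DKO Western diet libraries. In DKO/hA1 it read 324 and 446 FPKM on chow and 268, 303 and 574 FPKM on Western diet. Its highest values were those of the same 2 libraries in which Cyp2c29 was lowest, and the groups overlapped throughout. The log2 fold changes were 0.37 ± 0.31 in DKO and -0.07 ± 0.37 in DKO/hA1.

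Cyp2c38 and Cyp2c39, the latter a retinoic acid hydroxylase in mouse, were low. Cyp2c38 read 4.51, 8.20, 4.34 and 4.85 FPKM in DKO mice on chow and 2.90, 5.999 and 8.72 FPKM on Western diet, and 4.07 and 4.21 FPKM in DKO/hA1 mice on chow and 5.09, 6.70 and 4.07 FPKM on Western diet. Cyp2c39 read 0.841, 1.19, 0.819 and 0.596 FPKM, 0.554, 1.48 and 1.95 FPKM, 0.334 and 0.649 FPKM and 0.545, 0.688 and 0.406 FPKM in the same order of groups. The diets overlapped for both genes in both genotypes. On Western diet Cyp2c39 had a genotype difference of -0.52 ± 0.22 on the log2 scale, which did not pass (adjusted p = 0.850).

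Over the family, 0 of 10 members passed in the diet comparison within DKO, where 0.113% of all genes passed. At an unadjusted p below 0.05 there were 4 of 10 members and 11.7% of all genes. In DKO/hA1, 1 of 10 passed in either direction against 1.43% of all genes, and averaged over genotypes 2 of 10 against 4.11%. The median log2 fold change of the members was -0.61 in DKO and -0.01 in DKO/hA1, with medians within 0.01 of 0 over all genes tested. The diet comparisons of the 2 genotypes share no library, but both enter the average.

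**Figure D3:**
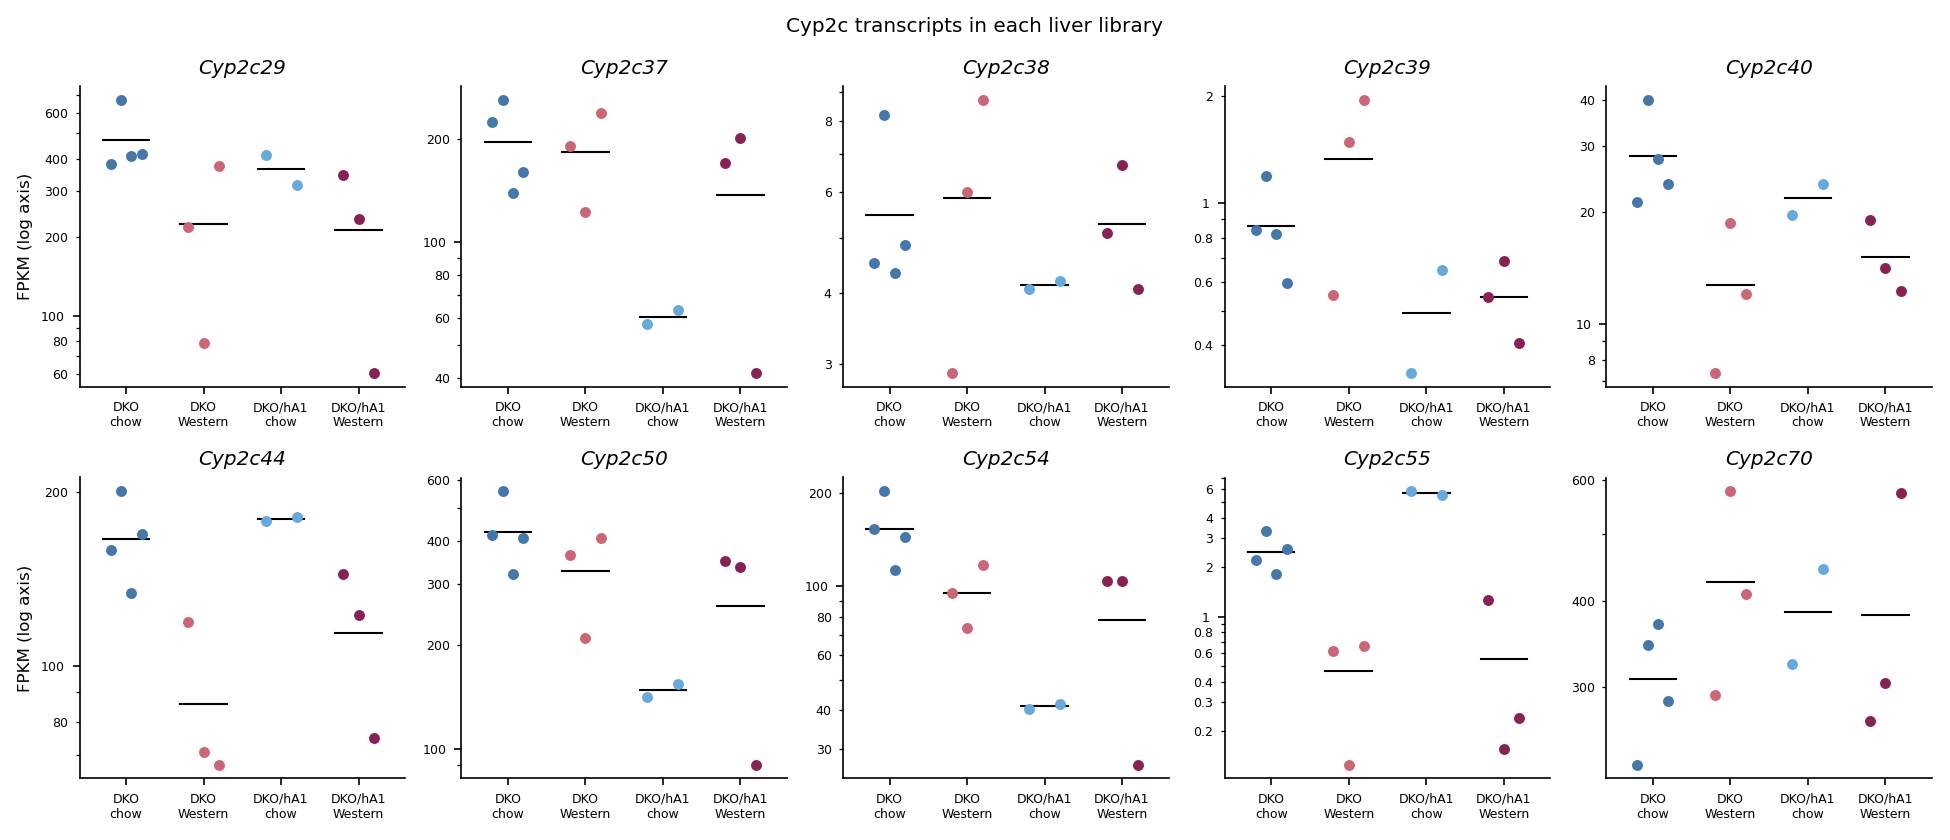
FPKM of each member on a log axis, 1 panel per gene and 1 point per library, grouped by genotype and diet, with a line at the group mean. Western diet points lie below chow points for Cyp2c55 and Cyp2c40, and the DKO/hA1 chow points lie low for Cyp2c37, Cyp2c50 and Cyp2c54.

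The second question was whether the human APOA1 transgene went with other levels of these genes on each diet. On chow, the largest differences were those of Cyp2c37, Cyp2c50 and Cyp2c54, which metabolise arachidonic and linoleic acid. Cyp2c37 read 225, 261, 139 and 160.3 FPKM in DKO chow and 57.7 and 63.4 FPKM in DKO/hA1 chow libraries. Cyp2c50 read 418, 559, 322 and 408 FPKM and 142 and 155 FPKM. Cyp2c54 read 153, 202, 113 and 144 FPKM and 40.3 and 42.03 FPKM. Both DKO/hA1 chow libraries lay well below all 4 DKO chow libraries for each gene. Summed over the 3 genes, the level was 776 ± 188 FPKM (SD, n = 4) in DKO chow and 250.2 ± 14.3 FPKM (SD, n = 2) in DKO/hA1 chow.

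In the fit over all 12 libraries these differences did not pass. The log2 fold changes were -1.66 ± 0.54 for Cyp2c37 (limma adjusted p = 0.458), -1.51 ± 0.49 for Cyp2c50 (adjusted p = 0.444) and -1.86 ± 0.47 for Cyp2c54 (adjusted p = 0.335). They correspond to levels 3.17-fold, 2.86-fold and 3.63-fold lower with the transgene. In this comparison 0 of 10 members passed, where 0.0779% of all genes passed. At an unadjusted p below 0.05 there were 4 of 10 members and 7.44% of all genes. That fit shares 1 estimate of spread over all groups, and the DKO/hA1 Western diet group was wide for these genes. Without the 2 libraries that stood apart, neither of which is a chow library, the fold changes stayed at -1.66, -1.52 and -1.86 and all 3 genes passed (adjusted p = 0.0321, 0.0219 and 0.00941). With only the 2 chow groups fitted, Cyp2c50 and Cyp2c54 passed (adjusted p = 0.0497 and 0.0398), and without DKO/hA1 Western diet replicate 3 alone Cyp2c54 passed (adjusted p = 0.00735). More genes passed in these fits in general: 38, 47 and 33 of all genes, in that order, against 9 in the fit over all 12 libraries. The DKO/hA1 chow group has only 2 libraries, and the labels give both the leading animal code number of DKO chow replicate 3, in which the 3 genes read 139, 322 and 113 FPKM.

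On Western diet the same 3 genes gave no such separation. Cyp2c37 read 191, 123 and 239 FPKM in DKO and 170.2, 202 and 41.4 FPKM in DKO/hA1 libraries. Cyp2c50 read 364, 211 and 409.9 FPKM and 352, 337 and 90.3 FPKM. Cyp2c54 read 95.1, 73.5 and 117 FPKM and 104, 104 and 26.7 FPKM. In each case DKO/hA1 Western diet replicate 3 was the lowest library of the study, and its 2 companions lay within the DKO range. The log2 fold changes were -0.60 ± 0.51, -0.46 ± 0.46 and -0.44 ± 0.44, and none passed. Without that library all 3 changed sign, to 0.10, 0.16 and 0.19.

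By the diet by genotype interaction, Cyp2c54 had the largest log2 value of the members, 1.42 ± 0.65, with an unadjusted p of 0.0511 and an adjusted p of 0.965. Cyp2c37 and Cyp2c50 had 1.06 ± 0.75 and 1.05 ± 0.67. By limma 0 of 10 members passed, where 0.0173% of all genes passed, and 1 of 10 had an unadjusted p below 0.05, against 4.90% of all genes. The genotype comparison on chow, the diet comparison in DKO/hA1 and the interaction share the DKO/hA1 chow libraries, so they are not independent of one another.

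For the other members on chow, Cyp2c55 stood the other way, higher in both DKO/hA1 libraries, at 0.94 ± 0.27 (adjusted p = 0.399). Cyp2c38 was below all DKO chow libraries by a small margin, at -0.32 ± 0.34. With Cyp2c37, Cyp2c50 and Cyp2c54 these made 5 of 10 members whose chow groups did not overlap in FPKM, as 21.6% of all genes tested did not. The log2 differences of Cyp2c29, Cyp2c39, Cyp2c40, Cyp2c44 and Cyp2c70 lay between -0.36 and 0.30. On Western diet the groups overlapped for every member, 0 of 10 passed by limma, and 0% of all 11547 genes passed. There 676 genes, or 5.85%, and 1 of 10 members, Cyp2c39, had an unadjusted p below 0.05.

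**Figure D4:**
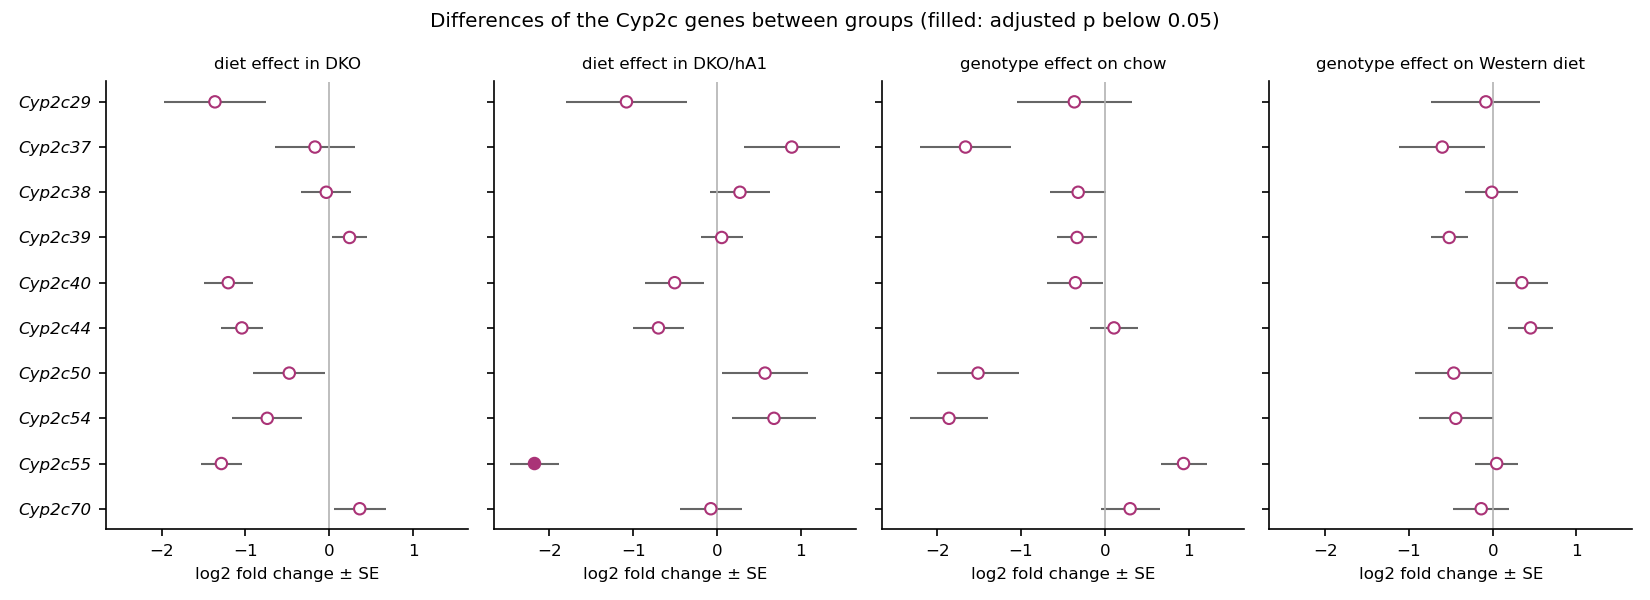
Log2 fold change with its SE for each member in the diet comparisons (Western minus chow) and genotype comparisons (with minus without the transgene), filled where the adjusted p was below 0.05. The one filled point is Cyp2c55 in DKO/hA1, at -2.18, and Cyp2c37, Cyp2c50 and Cyp2c54 lie furthest to the left in the genotype comparison on chow.

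The gene for the receptor CAR varied with the 3 genes, with an r over 12 libraries of 0.967 for Cyp2c37, 0.920 for Cyp2c50 and 0.904 for Cyp2c54. Nr1i3 read 83.9, 90.5, 53.6 and 74.2 FPKM in DKO mice on chow and 69.3, 49.5 and 106 FPKM on Western diet, and 26.8 and 25.8 FPKM in DKO/hA1 mice on chow and 66.3, 95.9 and 27.2 FPKM on Western diet. The 3 lowest libraries were both DKO/hA1 chow libraries and DKO/hA1 Western diet replicate 3, as for Cyp2c37, Cyp2c50 and Cyp2c54. Its genotype difference on chow was -1.48 ± 0.43 (adjusted p = 0.399) and did not pass. Among 6552 genes of sufficient level outside the members, Nr1i3 ranked second in likeness to Cyp2c37, behind Pex19 at 0.9748. In the same ranking it was not among the first 3 for Cyp2c50 or Cyp2c54. Nr1i2, the gene for PXR, was nearly flat at 22.5 to 33.99 FPKM.

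**Figure D5:**
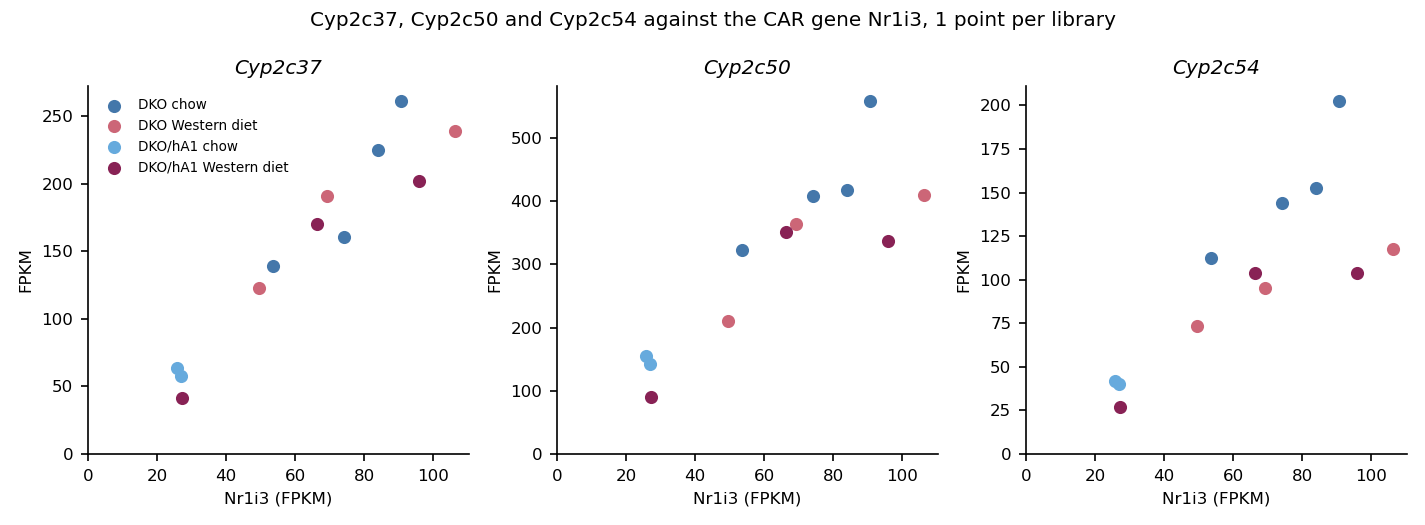
FPKM of Cyp2c37, Cyp2c50 and Cyp2c54 against FPKM of Nr1i3, 1 point per library, coloured by group. Both DKO/hA1 chow libraries and DKO/hA1 Western diet replicate 3 lie together at the lower left in all 3 panels.

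Other genes moved in those 3 libraries as well, and their part in the result was not tested. Pericentral genes, which mark hepatocytes around the central vein, had mean log2 levels of 5.73 to 5.76 there over 15 genes, against 5.99 to 6.85 in the other 9 libraries. All 15 had negative log2 differences between genotypes on chow, with a median of -0.64, 0 passing by limma and 6 at an unadjusted p below 0.05, against 7.44% of all genes. Cyp2e1, a pericentral P450, read 1297 to 1587 FPKM in the 3 libraries and 2565 to 4953 FPKM elsewhere. A clock index, the mean log2 level of Arntl-arm genes minus that of Dbp-arm genes, was 0.34 and 0.83 in DKO/hA1 chow. It was -0.65 in DKO/hA1 Western diet replicate 3 and -2.27 to -0.34 in the other Western diet libraries. It was -2.47 and -2.35 in DKO chow replicates 1 and 2, and 0.98 and 0.65 in replicates 3 and 4. Among chow libraries, Cyp2c37, Cyp2c50 and Cyp2c54 were lower in DKO replicates 3 and 4 than in DKO replicates 1 and 2, and lowest in DKO/hA1.

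The promoters of Cyp2c37 and Cyp2c50 are shown because these genes varied together with an r of 0.971 over 12 libraries, and those of Cyp2c40 and Cyp2c55 because these lay lower on Western diet in every library. Each runs from 250 bases before the transcription start to 50 after it, 5′ to 3′ on the gene's own strand, from RefSeq on GRCm38.p6. Capitals mark the nuclear receptor recognition sequences AGGTCA and AGTTCA and the HNF4 motif CAAAGTCCA, searched on both strands. They lie at chr19:39992174-39992473 on the plus strand (Cyp2c37), chr19:40089429-40089728 on the plus strand (Cyp2c50), chr19:39812765-39813064 on the minus strand (Cyp2c40) and chr19:39006769-39007068 on the plus strand (Cyp2c55).
Cyp2c37: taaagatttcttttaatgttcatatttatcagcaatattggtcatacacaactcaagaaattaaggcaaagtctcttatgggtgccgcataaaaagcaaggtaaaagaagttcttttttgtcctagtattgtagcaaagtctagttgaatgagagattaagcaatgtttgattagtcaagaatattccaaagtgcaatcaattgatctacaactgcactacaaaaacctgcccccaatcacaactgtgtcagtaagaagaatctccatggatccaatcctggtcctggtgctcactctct
Cyp2c50: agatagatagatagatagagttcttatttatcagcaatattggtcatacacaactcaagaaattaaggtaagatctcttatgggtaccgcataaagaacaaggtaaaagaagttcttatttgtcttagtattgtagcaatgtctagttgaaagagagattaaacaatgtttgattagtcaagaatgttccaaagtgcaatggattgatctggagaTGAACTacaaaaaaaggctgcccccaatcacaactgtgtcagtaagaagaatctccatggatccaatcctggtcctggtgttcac
Cyp2c40: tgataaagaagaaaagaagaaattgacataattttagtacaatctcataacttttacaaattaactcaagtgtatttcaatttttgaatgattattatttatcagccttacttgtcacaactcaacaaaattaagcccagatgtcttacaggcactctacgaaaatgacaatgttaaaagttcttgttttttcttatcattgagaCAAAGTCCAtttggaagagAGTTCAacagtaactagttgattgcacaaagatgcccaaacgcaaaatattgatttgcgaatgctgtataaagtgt
Cyp2c55: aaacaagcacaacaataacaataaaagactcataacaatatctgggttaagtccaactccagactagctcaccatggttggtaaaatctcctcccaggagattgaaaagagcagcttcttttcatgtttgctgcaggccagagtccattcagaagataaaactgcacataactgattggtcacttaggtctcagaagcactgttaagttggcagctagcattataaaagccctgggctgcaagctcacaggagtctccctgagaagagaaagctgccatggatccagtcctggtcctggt

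The Cyp2c37 and Cyp2c50 promoters were 86.6% identical. Cyp2c50 held 1 AGTTCA on its minus strand, printed as TGAACT, whose first printed base lies 35 bases before the start. Cyp2c37 held none of the 3 motifs, and Cyp2c55 held none either. Cyp2c40 held CAAAGTCCA and AGTTCA, beginning 45 and 26 bases before its start. Cyp2c70 held CAAAGTCCA and AGGTCA, 64 and 74 bases before. Cyp2c29 held AGGTCA, 154 bases before. Cyp2c39 held AGGTCA and AGTTCA in separate windows, 25 and 225 bases before the start of each. Cyp2c38 held none. Of 32851 promoter windows, 16.3% held AGGTCA, 14.0% AGTTCA and 0.5% CAAAGTCCA. The near copies Cyp2c67, Cyp2c68 and Cyp2c69 held CAAAGTCCA too, and Cyp2c69 shared 80.9% of its promoter with Cyp2c40. A match describes letters in the window and no binding. Of the members, 8 had a window in the table, and Cyp2c44 and Cyp2c54 are named only.

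Levels of some members varied with the acute-phase level across libraries, and those of others did so less or not at all. The r with the mean log2 level of 24 acute-phase genes over 12 libraries was -0.89 for Cyp2c44, -0.80 for Cyp2c29 and -0.73 for Cyp2c55, and 0.66 for Cyp2c70. With group means removed these became -0.70, -0.71, -0.41 and 0.78. Cyp2c50, Cyp2c54 and Cyp2c37 had -0.36, -0.37 and -0.18, and -0.72, -0.67 and -0.63 with group means removed. Cyp2c40 went from -0.57 to 0.18. Cyp2c38 and Cyp2c39 had 0.14 and 0.41, and then 0.15 and 0.32. The part of the acute-phase response in the diet results was not tested. Haptoglobin, serum amyloid and other acute-phase genes had a median log2 diet difference of 1.71 in DKO and 0.88 in DKO/hA1. By limma 0 and 1 of 24 passed, against 0.113% and 1.43% of all genes. At an unadjusted p below 0.05 there were 23 and 6 of 24, against 11.7% and 13.5% of all genes. Averaged over genotypes their median was 1.51, and 7 rose and 1 fell, where 2.91% of all genes passed as higher and 1.20% as lower.

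Around the family, a group of other CAR and PXR targets was lower on Western diet. Of 21 such genes tested outside the Cyp2c family, 9 fell and 0 rose in the averaged comparison, where 1.20% of all genes passed as lower. Their median log2 fold change was -1.06, against 0.00 over all genes. They included the drug-conjugating enzyme Ugt1a9 (-2.31 ± 0.17, adjusted p = 0.0000643), the glutathione transferase Gsta2 (-2.16 ± 0.41, adjusted p = 0.0191), the organic anion transporter Slco1a4 (-2.08 ± 0.30, adjusted p = 0.00750) and the main steroid and drug hydroxylase Cyp3a11 (-4.06 ± 0.80, adjusted p = 0.0226). In DKO alone 4 of 21 fell, against 0.0606% of all genes, and in DKO/hA1 alone 1 of 21, Ugt1a9, against 0.312%. In the genotype comparison on chow 0 of the 21 passed by limma, 3 had an unadjusted p below 0.05, against 7.44% of all genes, and their median was -0.13.

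Regulators and partners of the family did not pass. Of 17 nuclear receptors and liver transcription factors tested, 0 passed by limma in each of the 6 comparisons, including Nr1i3, Nr1i2 and Hnf4a. At an unadjusted p below 0.05 there were 1 to 6 of them, and 4.90% to 19.5% of all genes, depending on the comparison. The 6 of 17 came in the diet comparison in DKO/hA1, where 13.5% of all genes were below 0.05. Of 7 redox partners, among them Por, the electron donor, and Alas1, the first enzyme of haem synthesis, 0 passed in any comparison and 0 to 3 had an unadjusted p below 0.05. The 3 of 7 came in the diet comparison in DKO/hA1 and in the averaged one, against 13.5% and 19.5% of all genes. Por ranged widely, from 51.4 to 331 FPKM. Of 18 genes of arachidonic acid and epoxide metabolism, 2 rose in the averaged diet comparison, where 2.91% of all genes passed as higher: Alox5ap, a protein needed for leukotriene synthesis (1.22 ± 0.29, adjusted p = 0.0456), and the cyclooxygenase Ptgs1 (0.99 ± 0.23, adjusted p = 0.0374). Both are known from immune cells as well as liver. Of 11 macrophage markers, 7 rose in the same comparison, against 2.91% of all genes. The part of immune cells in the Alox5ap and Ptgs1 values was not tested. The hydrolase Ephx2 read 114 to 358 FPKM, lowest in DKO/hA1 Western diet replicate 3. Of 17 bile acid genes and 9 genes of the growth hormone axis tested, 0 passed in any comparison, and at most 2 and 4 of them had an unadjusted p below 0.05. The 4 of 9 came in the genotype comparison on chow, against 7.44% of all genes.

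The genes most like each member across the 12 libraries differed from member to member. For Cyp2c29 they were Akr1c19 (r = 0.962), Gsta3 (0.955) and Aco1 (0.951). For Cyp2c50 they were Ndrg2 (0.970), Sord (0.960) and Cyp2d13 (0.951), and for Cyp2c54 2810002N01Rik (0.974), Cyp2d13 (0.950) and Ndrg2 (0.949). For Cyp2c44 they were Bdh2 (0.966), Slc22a28 (0.941) and Slc22a30 (0.933), and for Cyp2c55 Afm (0.926). Cyp2c38 and Cyp2c39 had Atic (0.909) and Ptplad1 (0.905). Cyp2c70 had the weakest best match, Prepl at 0.884. For Cyp2c40 the first 3 were Cyp2c69, Cyp2c67 and Cyp2c68, near copies that could be candidates because they are not members.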

How the data were processed

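Liver RNA of 12 mice was sequenced on an Illumina Genome Analyzer IIx. Per the labels' protocols, samples of RNA integrity number under 7 were dropped, and a lane held 8 to 9 libraries. Per the submitters' processing notes, TopHat 1.3.2, Bowtie 0.12.8, SAMtools 0.1.19, Cuffdiff and build mm10 were used. The authors deposited FPKM for 23284 genes in 1 table, whose name speaks of counts. Its columns summed to 379689 to 578927. Reads per library are not given in the sources used here, so no counting interval is given. A rough estimate from the steps of low values put relative depth at 0.514 to 1.32 of DKO chow replicate 1, lowest in DKO chow replicate 2.

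FPKM were scaled by a trimmed mean of log ratios (factors 0.933 to 1.04), and genes with at least 1 FPKM in at least 2 libraries were tested. Left out were 784 small RNA genes. Also left out were 21 genes at 0 throughout a group and at least 1 FPKM in every library of another group. All-or-none differences of that kind are therefore not among the genes tested. limma 3.58.1 in R 4.3.3 was fitted to log2(scaled FPKM + 1) with 4 groups, a trended robust variance, two-sided tests and Benjamini-Hochberg adjustment over 11547 genes at 0.05. The fit was also run on simulated data, in which genes varied independently and no library stood apart. That run checked the code and does not show how well the fit suits these libraries. A fold change on this scale understates changes of low genes. The labels do not say that replicate numbers pair samples, and the main fit used no pairing. Of 15 same-numbered pairs, 4 had deviations from their group means correlated above 0.1, and r ran from -0.285 to 0.447. Western diet replicates 1 of DKO and DKO/hA1, with an r of 0.443, share their leading animal code number. The labels do not say what that number marks. The labels do not say that animals were independent of cage or litter, so p-values measure the spread between these libraries.

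The members and gene lists were chosen with earlier results of these data known. All 10 members were named, and of other lists the genes passing over all genes, largest first, up to 6 a list, plus single genes chosen for their role. Likeness used genes other than the members with a mean of at least 5 FPKM. Alternatives covered scaling, the value added, the filter, the variance, blocks, the groups fitted and leaving out libraries. Coding sequences came from GENCODE and promoters from RefSeq, on GRCm38. Proteins were not used here.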

Additional observations from a re-analysis of the deposited data

Results flagged for a closer look

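Cyp2c29 in DKO chow replicate 2 was 672 FPKM, far above the other 3 DKO chow libraries, which read 382 to 416 FPKM. Cyp2c38 in the same library was 8.20 FPKM, where the others read 4.34 to 4.85 FPKM. In each case the gap to the nearest library took up most of the group's range, which chance produces in about 1 of 20 groups. That library had the highest summed level of the 10 genes and the lowest estimated relative depth, 0.514. The part of depth in these values was not tested.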

How the results depend on the processing

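Each count of members passing was recomputed under 23 alternatives, 12 of which left out 1 library each. Of 1357 log2 fold changes of single members, 1277 kept their sign and side of the threshold, 10 came to pass, 11 no longer passed and 59 changed sign. In 57 of these 59 the reported value was no larger than its SE, as for Cyp2c54 in the genotype comparison on Western diet. The other 2 sign changes came without DKO/hA1 Western diet replicate 3, in the genotype comparison on Western diet, where leaving out single libraries gave -1.02 to 0.0992 for Cyp2c37 and -0.788 to 0.163 for Cyp2c50. Leaving out single libraries gave 0 to 1 members passing for diet in DKO, 0 to 1 for diet in DKO/hA1, 1 to 2 for the averaged diet effect and 0 to 1 for genotype on chow. Cyp2c55 passed in DKO without DKO/hA1 Western diet replicate 1 or 3 (adjusted p = 0.0333 and 0.0446), and Cyp2c54 passed on chow without DKO/hA1 Western diet replicate 3 (adjusted p = 0.00735). Fitting only the groups compared gave 0 members for diet in DKO/hA1 and 2 for genotype on chow, where 13 and 47 of all genes passed. Without both libraries that stood apart, 3 members passed for genotype on chow and 1 for the averaged diet effect, where 38 and 242 of all genes passed. With the animals' code number as a random block, 1 passed for the averaged diet effect, where 38 of all genes passed, and Cyp2c44 was lost. In the main fit 165 of all genes passed for diet in DKO/hA1, 9 for genotype on chow and 475 for the averaged diet effect. The causes of these changes were not tested. The genotype comparison on Western diet and the interaction stayed at 0 throughout.

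The labels do not say that replicate numbers pair the samples, and deviations of same-numbered libraries correlated at up to 0.447. With the replicate block, 0 members passed in DKO, 1 in DKO/hA1, 2 in the averaged comparison and 0 in each of the other comparisons. Equal totals moved the median of all genes by -0.19 for diet in DKO, -0.14 for the averaged diet effect, 0.16 for genotype on Western diet and 0.11 for the interaction, and Cyp2c40 then passed in the averaged comparison. With 2 DKO/hA1 chow libraries, every comparison that uses them rests on 2 animals. Near-identical copies limit Cyp2c40, Cyp2c37, Cyp2c50 and Cyp2c54, and low levels limit Cyp2c39 and Cyp2c55.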
